A study of Mus musculus with 2 samples.

Results

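The 10 genes described here encode receptors, ligands and nuclear targets of the Notch pathway, and all 10 symbols (Notch1, Notch2, Notch3, Notch4, Dll1, Dll4, Jag1, Jag2, Hey1 and Hey2) were found once each among the 32285 genes of the count tables. They were selected by symbol, with no threshold on their values but with earlier results of these data known. The cells were sorted for eYFP, which marks descendants of cells that expressed Isl1-Cre, from the body above the liver of mouse embryos at E13.5, tissue that the labels call pharyngeal arch. Control embryos carried Isl1-Cre and R26R-eYFP. Mutant embryos carried Isl1-Cre, R26R-eYFP and Pik3caH1047R, an activated form of the lipid kinase p110α that is switched on from the Rosa26 locus only where Cre has acted. Isl1-Cre acts in cardiopharyngeal mesoderm and in other Isl1-expressing tissue, so the allele was not restricted to endothelium, and the control embryos carried Cre and the reporter as well. There was 1 library per genotype, each from 3 pooled embryos of mixed background, so no value has a replicate and no test between genotypes was possible.

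Notch receptors are single-pass membrane proteins that are activated by ligands on a neighbouring cell. After ligand binding and cleavage, the intracellular part enters the nucleus and, with Rbpj, switches on target genes, among them the transcriptional repressors Hey1 and Hey2. In vascular endothelium, Notch signalling is known to promote the arterial fate and, through Dll4, to limit the number of sprouting tip cells, while Nr2f2 holds the venous fate. Jag1 on endothelium signals to the surrounding mural cells, where Notch3 is the main receptor.

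After keeping cells with 2001 to 8999 detected genes and under 10% mitochondrial UMIs (unique molecular identifiers, 1 for each captured transcript), 2783 control and 3489 mutant cells remained, with medians of 20412 and 16839 UMIs. Both libraries shared 12 barcodes among these cells. Clustering gave 16 clusters. Endothelial cells (ECs) formed 1 cluster, called EC-like here because the names were rebuilt from markers, in which all 15 EC markers were raised. It held 146 control cells (5.25% of the library, 3199514 UMIs) and 701 mutant cells (20.1%, 13970809 UMIs), and the 15 markers together reached 7190 and 7011 CPM (UMIs of a gene in every 1000000 UMIs of the class). Other clusters were unequal too: a hepatoblast-like one held 0 control and 46 mutant cells. A cluster led by Adh1 and Tbx4 held 344 control cells (12.4% of the library) and 59 mutant cells (1.69%). Whether the dissected tissue differed between the pools was not tested. Sex differed between the pools: among EC-like cells, Xist without Y-linked transcripts was seen in 89.7% of those from control and 33.2% of those from mutant embryos, and the opposite pattern in 54.5% of the mutant ones. Its part in the results below was not tested, and ratios between cells of the first kind, called female-like, are given beside some of them.

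All 10 genes were matched by identifier to the GENCODE M21 annotation of GRCm38. Dll4 lies on chromosome 2 from 119325784 to 119335962 on the plus strand, Notch4 on chromosome 17 from 34564268 to 34588503 on the plus strand, Hey1 on chromosome 3 from 8663359 to 8667256 on the minus strand and Hey2 on chromosome 10 from 30832359 to 30842801 on the minus strand. Notch3 (32120820 to 32166852) and Dll1 (15367354 to 15376872) are both on the minus strand of chromosome 17. RefSeq start sites on GRCm38.p6 were available for 9 of the 10 genes, all but Hey1. Short motifs were searched on both strands in the 250 bases before each start: TGGGAA, the core of the site bound by Rbpj, GTGGGAA, the longer form that contains it, and ACGTG, the core of the hypoxia response element. Of the 10 windows of members (Dll1 has 2), 1 held TGGGAA and GTGGGAA (Hey2) and 1 held ACGTG (Notch3). Among all 32851 such windows, 21.6% held TGGGAA, 5.42% GTGGGAA and 16.6% ACGTG. The windows of Notch1 and Jag2 and 1 of the 2 of Dll1 lay wholly inside the GENCODE gene model. Of the window of Jag1, 124 of the 250 bases did. The bases upstream of both the RefSeq start and the GENCODE gene model are printed for the ligand and the receptor of endothelium, Dll4 and Notch4, which held none of the motifs, and for the 2 members with a match. Capitals mark the motif, which reads on the minus strand of the printed sequence in both cases, starting 207 bases before the start of Hey2 and 186 bases before that of Notch3.
Dll4 (chr2:119325534-119325783, plus strand): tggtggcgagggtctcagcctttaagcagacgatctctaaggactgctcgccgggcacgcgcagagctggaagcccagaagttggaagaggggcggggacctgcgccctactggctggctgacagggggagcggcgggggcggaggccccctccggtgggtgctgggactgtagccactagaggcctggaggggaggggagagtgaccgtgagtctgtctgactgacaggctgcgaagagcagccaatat
Notch4 (chr17:34564045-34564267, plus strand): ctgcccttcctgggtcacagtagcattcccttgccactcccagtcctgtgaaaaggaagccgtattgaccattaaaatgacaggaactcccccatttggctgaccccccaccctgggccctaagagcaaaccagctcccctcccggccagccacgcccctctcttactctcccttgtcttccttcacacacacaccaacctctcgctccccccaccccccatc
Hey2 (chr10:30842802-30843033, minus strand): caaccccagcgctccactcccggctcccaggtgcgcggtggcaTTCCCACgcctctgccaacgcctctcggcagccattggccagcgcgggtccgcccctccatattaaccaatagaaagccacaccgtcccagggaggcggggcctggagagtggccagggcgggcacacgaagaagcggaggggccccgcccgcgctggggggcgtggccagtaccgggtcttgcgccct
Notch3 (chr17:32166891-32167140, minus strand): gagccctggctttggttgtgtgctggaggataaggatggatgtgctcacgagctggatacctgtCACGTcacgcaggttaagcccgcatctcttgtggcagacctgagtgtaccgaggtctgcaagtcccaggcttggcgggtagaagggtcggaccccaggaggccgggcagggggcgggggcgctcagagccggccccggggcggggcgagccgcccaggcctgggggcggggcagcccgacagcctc

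In EC-like cells, 5 of the 10 genes were lower in the mutant library by more than 1.5-fold (Dll4, Hey1, Notch4, Jag2 and Notch1), 2 were higher (Dll1 and Notch3) and 3 lay between (Notch2, Jag1 and Hey2). Among the 14196 genes with at least 20 UMIs over both libraries, 15% were lower and 15.3% higher past the same fold. The median log2 ratio of mutant over control was -0.44 for the 10 genes and -0.06 for all 14196. The median over the genes tested was lower still in some other classes, given below, where fewer of the 10 genes had enough UMIs. Levels are CPM of the EC-like sum with exact Poisson 95% intervals, and ratios have exact conditional binomial 95% intervals. Intervals here describe counting error alone, not how much embryos or libraries vary. The TMM factor of edgeR would raise every log2 ratio in EC-like cells by 0.11, and a scaling by the median ratio of well-counted genes by 0.10. With the TMM factor 4 of the 10 genes were lower, Notch1 no longer among them, and 11.4% of all genes were lower and 17.5% higher.

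Of the receptors, Notch1, the receptor used most widely in endothelium, was counted 423 times in control (132 CPM, 119.9 to 145) and 1217 times in mutant EC-like cells (87.1 CPM, 82.3 to 92.1). The log2 ratio was -0.60 (-0.76 to -0.44). It was -0.05 when each cell was thinned to 5000 UMIs and -0.38 as a mean over cells, although both give each cell equal weight. The size of the Notch1 difference thus varied between these ways of handling depth, and the reason was not tested. Notch4, the receptor most restricted to endothelium, was counted 200 times in the control library, a level of 62.5 CPM (54.1 to 71.8). Its 444 counts in the mutant library gave 31.8 CPM (28.9 to 34.9), and the log2 ratio was -0.98 (-1.22 to -0.73). Over 13 other ways of choosing, scaling or weighting the EC-like cells, the ratio of Notch4 lay between -1.15 and -0.61. Notch2, a receptor found mainly outside endothelium, was counted 52 times in control (16.3 CPM) against 188 times in mutant EC-like cells (13.46 CPM). Its ratio of -0.27 had an interval from -0.72 to 0.20, which includes no difference. Notch3, the receptor of mural cells, was low in both libraries, with 23 control UMIs (7.19 CPM, 4.56 to 10.8) against 163 mutant UMIs (11.7 CPM, 9.94 to 13.6). Its ratio of 0.70 had an interval from 0.06 to 1.40. The direction of Notch3 depended on which cells were taken as endothelial: the log2 ratio was -0.83 for the EC-like clusters at resolution 0.8, 1 of which held 70 control UMIs of Notch3 in 35 cells, and -0.02 for cells with at least 5 of the 15 EC markers. The cluster with those 70 UMIs had 13 of 15 EC and 6 of 10 mural markers raised, and the part of mural cells in its values was not tested.

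**Figure D1:**
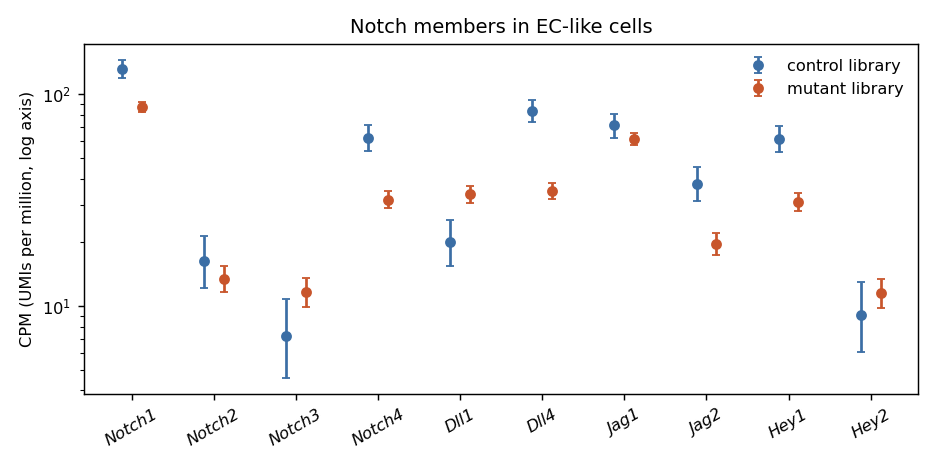
Levels of the 10 genes in EC-like cells of the control library (146 cells) and the mutant library (701 cells), in CPM on a log axis; points are the level of the summed UMIs and bars the exact Poisson 95% interval. Dll4, Notch4, Jag2, Hey1 and Notch1 are lower in the mutant library with intervals that do not overlap, Dll1 is higher, and Notch2, Notch3, Jag1 and Hey2 have overlapping intervals.

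Among the ligands, Dll4, the ligand of arterial and tip endothelium, differed most of the 10 genes. The control library held 268 of its UMIs (83.8 CPM, 74.03 to 94.4) and the mutant library 489 (35.002 CPM, 31.97 to 38.2). Dll4 was thus 2.39-fold lower in mutant EC-like cells, at a log2 ratio of -1.26 (-1.48 to -1.04), and of -1.36 between female-like cells. Jag2, the second Jagged ligand, stood at 37.8 CPM in control EC-like cells (121 UMIs, 31.4 to 45.2). In the mutant it stood at 19.6 CPM (274 UMIs, 17.4 to 22.1), a ratio of -0.95 (-1.26 to -0.63), which made it the other clearly lower ligand. Jag1 was close in both libraries, with 228 control UMIs giving 71.3 CPM (62.3 to 81.1) and 859 mutant UMIs giving 61.5 CPM (57.4 to 65.7). Its ratio was -0.21 (-0.43 to 0.00). Dll1, a ligand better known from somites, muscle and neural progenitors and from fetal arteries, was the only ligand of the 4 that was higher in the mutant library. Its 64 control UMIs gave 20.003 CPM (15.4 to 25.5) and its 472 mutant UMIs 33.8 CPM (30.8 to 37.0), a ratio of 0.76 (0.38 to 1.16). In cells called G1 the ratio of Dll1 was 0.17.

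Of the HEY targets, repressors of the bHLH family, only Hey1 differed beyond counting error. For Hey1, 197 UMIs gave 61.6 CPM (53.3 to 70.8) in control EC-like cells, and 433 UMIs gave 31.0 CPM (28.1 to 34.1) in mutant ones. Its log2 ratio was -0.99 (-1.24 to -0.74), -1.20 between female-like cells and -0.57 as a mean over cells. Hey2 was low, its 29 control UMIs giving 9.06 CPM (6.07 to 13.02) and its 161 mutant UMIs 11.5 CPM (9.81 to 13.4). The log2 ratio of Hey2 was 0.35 with an interval from -0.23 to 0.97, which includes no difference.

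The share of cells in which a gene was seen was compared at equal depth. At 5000 UMIs per cell, which left 143 control and 669 mutant EC-like cells and dropped 3 and 32 shallower ones, a Dll4 UMI was seen in 26.6% of control cells (Clopper-Pearson 95% interval 19.5 to 34.6%) and in 16.6% of mutant cells (13.9 to 19.6%). The difference was -9.98 percentage points (Newcombe interval -18.2 to -2.77). Intervals of shares and of their differences treat the cells of a pool as independent. They do not describe how much embryos vary and are no test between genotypes. For Jag2 the shares were 19.6% in control and 10.0% in mutant, a difference of -9.57 points (-17.1 to -3.36), and for Notch4 they were 21.0% and 14.2%, a difference of -6.78 points (-14.6 to -0.25). Dll4 and Notch4 UMIs were rare in a class not known for these genes: in branchial muscle-like cells thinned alike, Dll4 was seen in 0 of 875 control cells, which allows up to 0.343% by a floor of 3 counts and 0.421% by the exact interval, and in 0.125% of mutant cells, and Notch4 in 0.686% and 2.00%. The median depths before thinning were 20162 and 17004 UMIs in EC-like cells and 26389 and 22339 in branchial muscle-like cells. For Hey1 the difference was -4.57 points (-11.5 to 0.77) and for Dll1 4.91 points (-1.26 to 9.40), and both intervals include 0. Notch1 was seen in 37.1% of control and 37.2% of mutant cells.

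**Figure D2:**
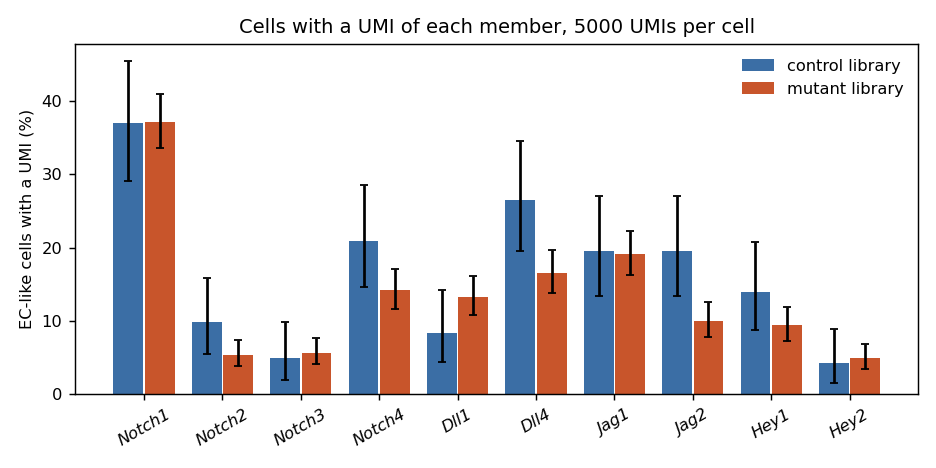
Share of EC-like cells with at least 1 UMI of each gene after thinning to 5000 UMIs per cell, in percent; bars are the 143 control and 669 mutant cells and whiskers the Clopper-Pearson 95% interval. Dll4 (26.6% and 16.6%) and Jag2 (19.6% and 10.0%) differ most between the libraries, and the Notch1 bars are level.

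The EC-like cells were clustered again without the 10 genes, the pathway and the arterial and venous lists, which gave 4 sub-clusters. Sub-cluster 0 (89 control and 454 mutant cells) was led by Kcne3, Fabp4 and Rgcc and was capillary or tip EC-like, by 3 of 10 markers. Sub-cluster 1 (26 and 129 cells) was led by Eln, Fbln5 and Mgp, genes of elastic fibres and vessel walls. Its other leading genes were Has2, Hand2os1, Pi16, Tbx20, Tmem108, Vcan and Gkn3. Sub-cluster 1 had 11 of 14 arterial and 6 of 7 endocardial markers raised and none of the latter among its 10 leading genes, so it was given no name. Sub-cluster 2 (12 and 82 cells) was shallow, with a median of 8864 UMIs, and was left unnamed. Sub-cluster 3 (19 and 36 cells) was lymphatic EC-like, with 7 of 7 markers. The share of sub-cluster 1, where the arterial genes were highest, was 17.8% of control EC-like cells (11.98 to 24.99%) and 18.4% of mutant ones (15.6 to 21.5%). Lymphatic EC-like cells made up 13.01% of the control EC-like cells (8.02 to 19.6%). In the mutant library they made up 5.14% (3.62 to 7.04%), or 3.004% when only female-like cells were counted. These are shares of the EC-like cells, themselves 5.25% of the control and 20.1% of the mutant library. Of all kept cells, 19 of 2783 control and 36 of 3489 mutant cells were lymphatic EC-like.

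The 2 largest sub-clusters differed in the genes that were lower. In sub-cluster 0, 4 of the 10 genes were lower past 1.5-fold (background 15.3% of 12767 genes) and 2 higher (15.4%), with a median log2 ratio of -0.15. In sub-cluster 1, 7 of the 10 were lower (background 19.8% of 10930 genes) and 0 higher (18.5%), with a median of -0.89. Dll4, Notch4 and Jag2 were lower in both, and the higher pair in sub-cluster 0 was Dll1 and Notch2, the latter from 9 control UMIs. Dll4 went from 94.8 to 37.9 CPM in sub-cluster 0, a log2 ratio of -1.32 (-1.57 to -1.07), and from 96.7 to 35.8 CPM in sub-cluster 1, a ratio of -1.43 (-1.97 to -0.88). Notch4 went from 62.7 to 30.8 CPM in sub-cluster 0 and from 98.9 to 37.6 CPM in sub-cluster 1. The levels of Dll4 in both sub-clusters were therefore close within each library.

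Hey1 and Jag1 separated the 2 sub-clusters. In sub-cluster 0, the 143 control UMIs of Hey1 gave 66.5 CPM and the 205 mutant UMIs 21.5 CPM, with a ratio of -1.63 (-1.95 to -1.31). In sub-cluster 1 it was 83.2 CPM (37 UMIs) and 72.7 CPM (195 UMIs), a ratio of -0.19 (-0.71 to 0.35), and the intervals of both ratios do not overlap; their difference was not tested. Jag1 was 23.2 and 27.3 CPM in sub-cluster 0, with a ratio of 0.23 (-0.21 to 0.70). In sub-cluster 1 it was 366 CPM in control and 199 CPM in mutant, with a ratio of -0.88 (-1.13 to -0.62). Hey2 was found almost entirely in sub-cluster 1, at 58.5 CPM in control (26 of its 29 EC-like UMIs) and 51.4 CPM in mutant (138 of 161), and did not differ there beyond counting error. Dll1 was higher in sub-cluster 0, at 16.3 and 33.7 CPM (1.05, 0.55 to 1.60), whereas in sub-cluster 1 its 15 control UMIs gave 33.7 CPM and its 55 mutant UMIs 20.5 CPM, a ratio of -0.72 (-1.56 to 0.21). In the lymphatic EC-like sub-cluster, Notch1 was 157 CPM in control and 61.1 CPM in mutant (-1.37, -1.90 to -0.84), and Dll4 36.0 and 14.2 CPM (-1.34, -2.52 to -0.19) from 16 and 13 UMIs. Between the libraries, summed mesenchyme markers in sub-cluster 1 went from 839 to 534 CPM and mural markers from 598 to 205 CPM, and their part in the values of sub-cluster 1 was not tested. In the lymphatic EC-like sub-cluster (19 control and 36 mutant cells), summed mesenchyme markers went from 560 to 31.6 CPM and macrophage markers from 202 to 15.3 CPM. The part of these in its values was not tested either.

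**Figure D3:**
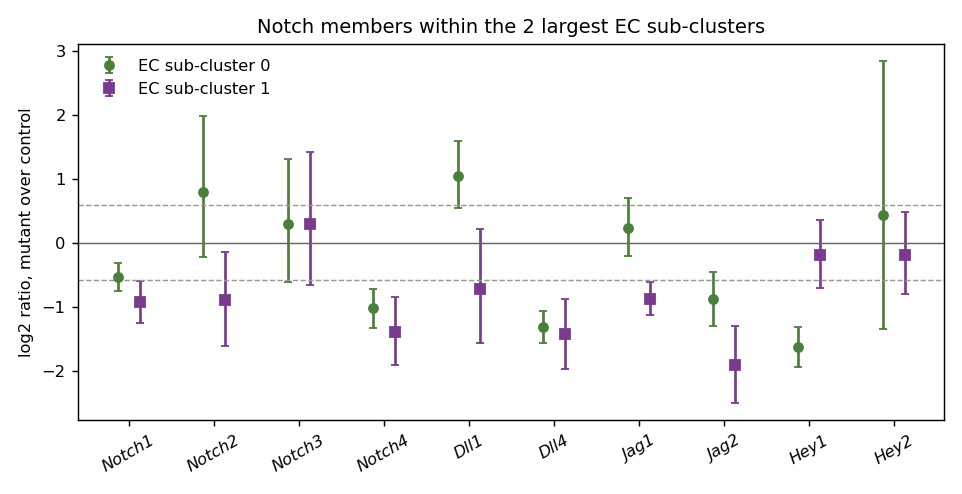
Log2 ratio of mutant over control CPM for each gene within EC sub-cluster 0 (89 control and 454 mutant cells) and EC sub-cluster 1 (26 and 129 cells); bars are the exact conditional binomial 95% interval, the solid line is 0 and dashed lines mark 1.5-fold. Dll4 and Notch4 are lower in both (-1.32 and -1.43 for Dll4), Hey1 is lower in sub-cluster 0 with a ratio near 0 in sub-cluster 1, and Jag1 shows the opposite pattern.

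Genes known to mark arterial endothelium were lower alongside. Their list was chosen with earlier results of these data known, so its counts are a description and not independent support. Of a list of 14 that holds none of the 10 genes, 10 were lower in mutant EC-like cells past 1.5-fold (15% of all genes) and 0 higher (15.3%), with a median log2 ratio of -0.91 against -0.06 for all genes. Their summed level was 1912 CPM in control and 1049 CPM in mutant. The largest differences were in Cxcr4, the receptor of Cxcl12, with 73 control UMIs (22.8 CPM) against 59 mutant UMIs (4.22 CPM), a ratio of -2.43 (-2.95 to -1.92), in Sema3g, a semaphorin of arterial endothelium (-1.77, -2.11 to -1.41), and in Unc5b, a netrin receptor (-1.72, -1.90 to -1.53). The gap junction genes Gja4 and Gja5 and the ephrin gene Efnb2, named here after their values were seen, had ratios of -1.34, -1.53 and -0.98. The arterial genes nearest to 0 were Tmem100 at 27.5 and 27.1 CPM (-0.02, -0.36 to 0.33), the kinase gene Bmx at 22.5 and 19.4 CPM (-0.21, -0.59 to 0.18) and the transcription factor gene Sox17 at 143 and 112 CPM (-0.35, -0.50 to -0.20). The arterial genes were therefore not lower by an equal amount. The list was also lower in some other classes, where fewer of its genes passed 20 UMIs: the median was -1.04 in neuron-like cells (5 of 9 lower, 18.5% of all genes), -1.06 in cardiomyocyte-like cells (4 of 6, 21.7%) and -0.61 in a cluster of mixed blood genes (5 of 8, 19.4%). It was 0.03 in mesenchyme-like and 1.06 in mesothelium-like cells, so a lower median was not particular to EC-like cells.

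The arterial difference was present within the sub-clusters. The arterial genes were left out of this clustering, so a sub-cluster can hold arterial and other cells together. In thinned control cells of sub-cluster 0, arterial UMIs had a median of 4 and a maximum of 53. Whether fewer cells were arterial or each arterial cell held fewer of these UMIs was not tested. In sub-cluster 0, 12 of the 14 genes were lower past 1.5-fold (15.3% of all genes) with a median of -1.40, and in sub-cluster 1, 11 of 14 (19.8%) with a median of -1.04. The summed level was 1376 CPM in control and 627 CPM in mutant cells of sub-cluster 0, and 5584 and 2644 CPM in sub-cluster 1. With the sub-clusters given equal shares in both libraries the median over the list was -1.12, and between female-like cells it was -1.05. Per cell thinned to 5000 UMIs, the 14 genes together had a median of 5 UMIs in control and 3 in mutant EC-like cells. Cells with 10 or more such UMIs made up 30.1% of control cells (22.7 to 38.3%) and 15.7% of mutant cells (13.02 to 18.7%), and 6 control and 24 mutant cells lay at 9 or 10. In sub-cluster 1 the same shares were 70.8% (48.9 to 87.4%, 24 cells) and 44.2% (35.1 to 53.5%, 120 cells). The highest value of a single cell was 85 UMIs in control and 87 in mutant, so cells with high arterial counts were present in both libraries.

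Venous genes did not move as a group. Of 7 genes, 6 had enough UMIs, 2 were lower and 2 higher past 1.5-fold, and the median log2 ratio was -0.21, a value whose sign depended on the cells taken. Vwf, von Willebrand factor, was higher at 84.4 CPM in control and 159 CPM in mutant (0.92, 0.73 to 1.10), as was Nr2f2, the venous transcription factor, at 227 and 351 CPM (0.63, 0.52 to 0.75). The apelin receptor gene Aplnr was lower, at 353 and 170.5 CPM (-1.05, -1.15 to -0.95). Ephb4, the receptor of Efnb2, was level at 176 and 178 CPM (0.01, -0.12 to 0.15), and Nrp2 was at 407 and 299.7 CPM (-0.44, -0.53 to -0.35). The other gene counted as lower, Ackr1, had 43 UMIs in all and an interval from -1.61 to 0.55. Other endothelial lists moved as well: summed endocardial markers went from 395 to 761 CPM, with 4 of 7 higher. Tll1 alone went from 30.3 to 316 CPM, whereas Npr3 went from 81.9 to 42.8 CPM. Summed lymphatic markers went from 631 to 364 CPM, with 1 of 7 higher. The part of these shifts in the levels of the 10 genes was not tested.

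**Figure D4:**
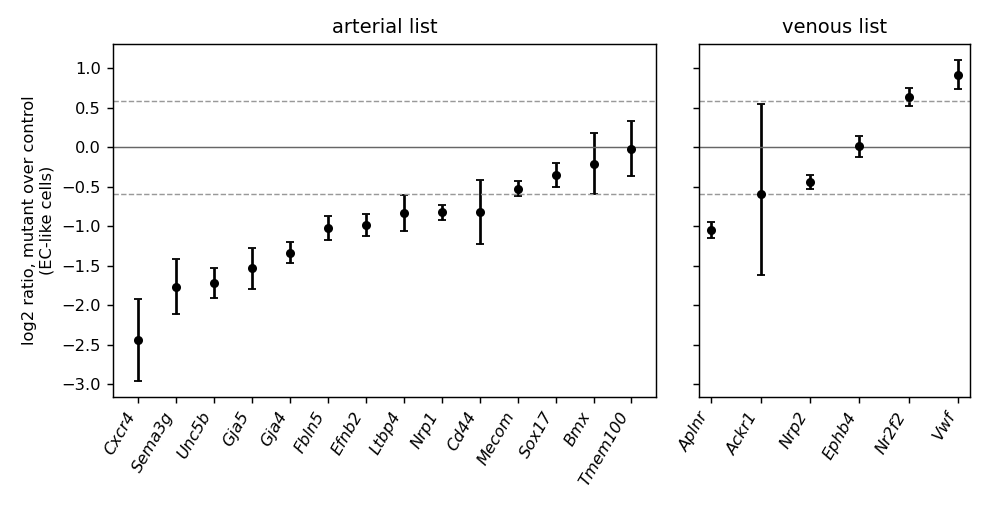
Log2 ratio of mutant over control CPM in EC-like cells for the 14 arterial genes and the 6 venous genes with at least 20 UMIs, ordered by ratio; bars are the exact conditional binomial 95% interval, the solid line is 0 and dashed lines mark 1.5-fold. All 14 arterial points lie below 0, from -2.43 (Cxcr4) to -0.02 (Tmem100), whereas the venous points run from -1.05 (Aplnr) to 0.92 (Vwf).

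The other genes of the pathway were read by role. Of 52 genes outside the 10, 48 were counted often enough in EC-like cells, 10 were lower and 5 higher past 1.5-fold, against 15% and 15.3% of all genes, and their median log2 ratio was -0.18. These counts lie near the share over all genes. The roles differed. All 3 Fringe genes, which encode the glycosyltransferases that tune which ligands a Notch receptor answers to, were lower, and they were the 3 largest differences below 0 among genes with at least 50 UMIs. Neurl1b (-2.04) and Dtx4 (-1.50), with 35 and 28 UMIs in all, were lower as well. Lfng went from 25.3 CPM (81 UMIs) to 5.87 CPM (82 UMIs), a ratio of -2.11 (-2.57 to -1.65), Mfng from 140 to 66.8 CPM (-1.06, -1.23 to -0.90) and Rfng from 10.9 to 5.37 CPM (-1.03, -1.62 to -0.40). The other receptor glycosylation genes, Pofut1 (-0.20) and Poglut1 (-0.15), were not past 1.5-fold, so 3 of the 5 genes of this role were lower. Among genes with at least 50 UMIs, the 3 largest differences above 0 were in Neurl3, a neuralized-like ubiquitin ligase gene (7.50 and 14.96 CPM, ratio 1.00, 0.38 to 1.67), in Dtx1, a Deltex gene (2.81 and 5.23 CPM, ratio 0.89, -0.11 to 2.08, which includes 0), and in Maml3, a coactivator of the nuclear complex (89.4 and 166 CPM, ratio 0.89, 0.71 to 1.07). None of the 10 genes for cleavage of the receptor, such as Adam10 and the γ-secretase subunits, was past 1.5-fold in either direction. Further targets, named after their values were seen, went different ways. Hes1 was at 95.95 CPM in control and 169 CPM in mutant (0.82, 0.65 to 0.99). Hes6 was at 45.9 and 26.3 CPM (-0.81, -1.09 to -0.52), and Nrarp, a feedback inhibitor, at 123 and 86.5 CPM (-0.50, -0.67 to -0.33). Hes7 was higher from 1 control and 20 mutant UMIs, with an interval that includes 0. Of the 6 targets tested, Hey1 and Hey2 included, 2 were lower and 2 higher past 1.5-fold, against 15% and 15.3% of all genes.

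Across the classes, the 10 genes were divided between those found mainly in endothelium and those shared with other cells. In both libraries, Dll4 and Notch4 were highest in EC-like cells with intervals clear of every other class that held at least 20 cells. For Dll4 the next control class was neuron-like at 2.78 CPM (1.39 to 4.97), against 83.8 CPM in EC-like cells. Notch1 led in EC-like cells of the control library, ahead of neural crest-like cells at 94.2 CPM (75.4 to 116), whereas in the mutant library EC-like (87.1 CPM), epithelium-like (80.7 CPM, 73.4 to 88.7) and neural crest-like cells (72.7 CPM, 49.4 to 103) had overlapping intervals. Jag1 was also highest in EC-like cells of both libraries, though in the mutant its interval overlapped that of neural crest-like cells at 37.5 CPM (21.4 to 60.9). Jag2 was highest in EC-like cells in control (37.8 CPM), close to epithelium-like cells (30.0 CPM, 24.9 to 35.8), and in the mutant library epithelium-like cells led at 36.4 CPM (31.5 to 41.9), clear of EC-like cells at 19.6 CPM. Notch2 led in mural-like cells (112 CPM in control, 86.1 CPM in mutant). The latter overlapped mesenchyme-like cells at 81.6 CPM and also the mesothelium-like, epithelium-like and neural crest-like cells and the cluster led by Adh1 and Tbx4. Notch3 led in branchial muscle-like cells (74.7 and 65.1 CPM), with mural-like cells overlapping at 66.2 and 55.7 CPM and, in the mutant, epithelium-like cells at 62.1 CPM. Dll1 led in branchial muscle-like cells in control (39.9 CPM, 37.4 to 42.6) and in the mutant library in EC-like cells, where it overlapped neuron-like (32.2 CPM, 28.3 to 36.4) and branchial muscle-like cells (28.8 CPM, 26.4 to 31.2).

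Neither HEY gene was highest in EC-like cells. Hey1 had its highest control levels in epithelium-like cells (72.3 CPM, 64.3 to 81.0), overlapping EC-like cells at 61.6 CPM. In the mutant library branchial muscle-like cells led at 69.6 CPM (65.9 to 73.4), overlapping epithelium-like (66.3 CPM), neural crest-like (60.9 CPM) and mesothelium-like cells (57.6 CPM). The EC-like level of 31.0 CPM was below all of these. Hey2 was highest in neural crest-like cells in control (97.4 CPM, 78.4 to 119.8) and in cardiomyocyte-like cells in the mutant library (53.4 CPM, 45.7 to 62.1). The latter overlapped neural crest-like cells at 51.6 CPM (32.3 to 78.1) and mesothelium-like cells at 36.7 CPM (26.4 to 49.6).

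In mesenchyme-like and branchial muscle-like cells, Hey1 was higher in the mutant library, the opposite of EC-like cells. In mesenchyme-like cells, it had 152 UMIs in control (14.9 CPM) and 484 in mutant (51.4 CPM), a log2 ratio of 1.78 (1.52 to 2.05). Hey2 had 6.88 and 17.5 CPM there (1.35, 0.94 to 1.77). Of the 9 genes with at least 20 UMIs in this class, 4 were higher past 1.5-fold (background 12.2% of 15221 genes) and 0 lower (14.3%), the other two being Notch4 and, from 22 UMIs, Dll1. In branchial muscle-like cells, Hey1 was counted 950 times in control (40.6 CPM) against 1360 times in mutant (69.6 CPM), a ratio of 0.78 (0.66 to 0.90). Of 9 genes tested there, 2 were higher (background 16.8%) and 1 lower (9.99%), the lower one being Notch1 at 25.6 and 16.3 CPM (-0.65, -0.85 to -0.45). Dll1 and Notch3, which were higher in mutant EC-like cells, were at 39.9 and 28.8 CPM (-0.47, -0.63 to -0.32) and at 74.7 and 65.1 CPM (-0.20, -0.30 to -0.09) in branchial muscle-like cells.

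Mesothelium-like cells, with 70 control and 68 mutant cells, showed the widest differences. All 5 genes with enough UMIs were higher past 1.5-fold (background 23.2% of 10957 genes; lower, 14.4%). Hey1 was counted 8 times in control (3.68 CPM) and 66 times in mutant (57.6 CPM), a ratio of 3.97 (2.91 to 5.24), and Hey2 had 5 UMIs (2.30 CPM) and 42 UMIs (36.7 CPM), a ratio of 3.995 (2.66 to 5.69). The share of these cells called G1 was 50% in control and 69.1% in mutant and the median depth 28114 and 14080 UMIs, and the part of either was not tested. In epithelium-like cells, 3 of 9 genes were higher (background 11.2%), namely Notch1 (46.7 and 80.7 CPM), Notch3 (35.2 and 62.1 CPM) and Dll1 (8.11 and 16.6 CPM), and 1 was lower (12.2%), Hey2 at 11.3 and 5.17 CPM (-1.13, -1.86 to -0.42). In neuron-like cells, 2 of 10 were higher (background 8.04%), Notch4 and Dll1, and 2 lower (18.5%), Jag2 and, from 22 UMIs with an interval that includes 0, Dll4. Jag2 was at 23.7 and 13.2 CPM there (-0.84, -1.26 to -0.42), a direction shared with EC-like cells. Cardiomyocyte-like cells had 41.6 and 23.9 CPM of Hey1 (-0.80, -1.39 to -0.18) and 13.9 and 53.4 CPM of Hey2 (1.95, 1.11 to 2.93). Of the control cells of this class, 20.4% were female-like and 0% male-like, and the others showed neither pattern. Of the 3 genes tested in cardiomyocyte-like cells, 2 were lower (background 21.7%) and 1 higher (13.3%), with a median log2 ratio of -0.80. In the cluster of mixed blood genes, 4 of 8 were lower (19.4%) and 1 higher (11.4%), with a median of -0.62. A lower median over the genes tested was therefore not particular to EC-like cells, where it was -0.44 over 10 genes. These medians rest on different sets of genes.

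Notch4 was at low levels outside EC-like cells, and in 3 classes these were higher in the mutant library with intervals clear of 0. It went from 2.36 to 4.56 CPM in mesenchyme-like cells (0.95, 0.20 to 1.74), from 1.24 to 3.63 CPM in branchial muscle-like cells (1.55, 0.91 to 2.23) and from 4.29 to 9.08 CPM in neuron-like cells (1.08, 0.30 to 1.94). The 15 EC markers summed moved the same way, from 132 to 168 CPM, from 29.3 to 63.0 CPM and from 80.0 to 91.0 CPM in these classes, while the EC-like share of the library went from 5.25% to 20.1%. The part of free endothelial RNA in these values was not tested.

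**Figure D5:**
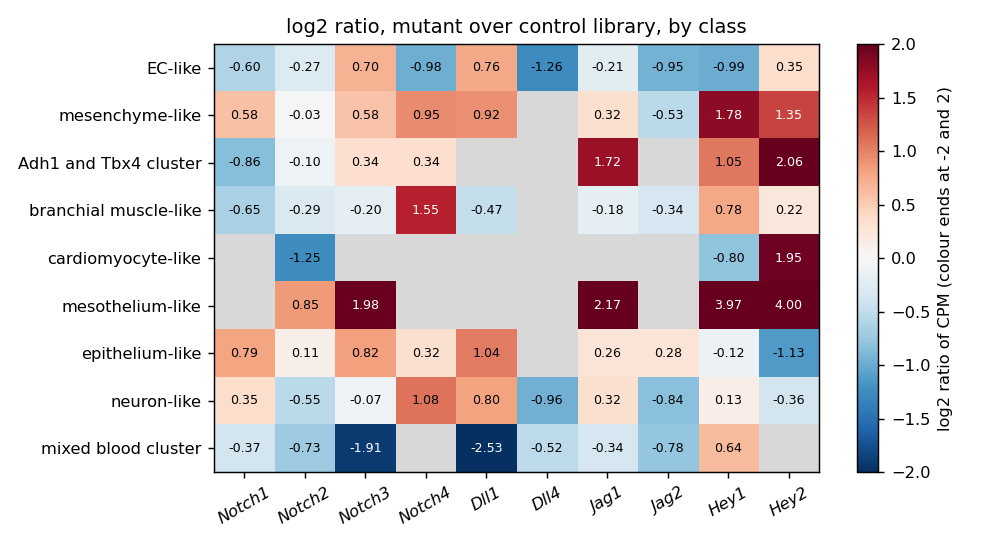
Log2 ratio of mutant over control CPM for each gene in the 9 classes that held at least 50 cells in both libraries; red is higher and blue lower in the mutant library, grey marks genes with under 20 UMIs in the class, and the colour scale ends at -2 and 2. Hey1 is lower in EC-like (-0.99) and cardiomyocyte-like cells (-0.80) and higher in mesenchyme-like (1.78), branchial muscle-like (0.78) and mesothelium-like cells (3.97).

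As a description of patterns over cell types, log2(CPM + 1) was correlated across 47 points, each a cluster at resolution 0.8 with at least 20 cells in 1 library. The points share libraries and depth, so no p is given. The genes most like Dll4 were Ccm2l, an endothelial gene related to Ccm2 (Pearson r = 0.92), Ushbp1 (0.92) and AC137513.1 (0.91). Those most like Notch4 were Cyyr1 (0.85), Clec14a, an endothelial lectin gene (0.83), and She (0.83). Notch3 was most like Mrc2, a collagen receptor gene (0.80), Sertad4 (0.80) and the polarity gene Llgl1 (0.79), and Dll1 most like Zbtb18 (0.70), Pde1c (0.68) and Plxna2 (0.67). Among the 10 genes themselves, Notch4 and Dll4 were the most alike (0.82), followed by Notch2 and Notch3 (0.72).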

How the data were processed

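Reads of the 10x Genomics 5′ libraries were aligned by the authors to the mouse genome (GRCm38, mm10) with Cell Ranger 7.1.0, and the deposited files hold UMI counts per gene and called cell without normalization. The annotation release and the counting of intronic reads are not given in the sources used here. The control file held 4505 cells and 66935720 UMIs, the mutant file 5357 cells and 73915525 UMIs. The study's filters were kept (over 2000 and under 9000 detected genes, mitochondrial UMIs under 10%).

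Canonical correlation anchors of Seurat 5.3.0 under R 4.3.3 joined the libraries on 2000 variable genes, from which the 10 genes and the pathway, arterial and venous lists had been left out, and cell-cycle scores were regressed out of the joined values. Resolution was raised in steps of 0.1 until at least 15 clusters were found. This was reached at 0.3, which gave 16, and higher values were not searched for exactly 15. Clusters were named from markers raised at least 2-fold and seen in at least 10% of cells, at least 3 of them. By this rule the cluster of mixed blood genes was macrophage-like, with 10 of 10 markers, and EC sub-cluster 1 endocardial EC-like. Both names were set aside by hand after the leading genes were read. Scrublet (scanpy 1.11.5) marked 0 control and 1 mutant cells as doublets, against 162 and 230 expected at 0.8% for every 1000 deposited cells. These calls therefore do not show that doublets were absent. Doublets were kept, and the cells with the highest scores were left out in an alternative.

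Within each class and library, the UMIs of a gene were summed and scaled by the sum over all genes (CPM), and mutant was set over control as a log2 ratio. A gene counts as lower or higher past 1.5-fold with at least 20 UMIs over both libraries, and a count of 0 enters at a floor of 3. With 1 library per genotype there is no p-value. Counts for the 14196 genes of the EC-like comparison were also simulated as Poisson draws, the model on which the intervals rest. The simulated fold lay inside its interval in 95.5% of the changed genes and 95.7% of the others. The draws held no variation between cells, embryos or libraries, so they check only the calculation of the intervals. The members and lists were chosen with earlier results of these data known. Named genes were the 10 members, the 3 largest differences in each direction in each list among genes with at least 50 UMIs, and the 3 genes most like Dll4, Notch4, Notch3 and Dll1. Female-like means Xist detected and Ddx3y, Uty, Kdm5d and Eif2s3y all at 0, male-like the reverse. Promoter sequences are from RefSeq. Alternatives changed the choice, filtering, depth and scaling of the EC-like cells. edgeR 4.0.16 gave the TMM factor. Intervals were computed with scipy 1.17.1 and numpy 2.4.6 in Python 3.11.15; tables used pandas 2.3.3, and plots matplotlib 3.10.9.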

Additional observations from a re-analysis of the deposited data

Results flagged for a closer look

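Some genes were past 1.5-fold in opposite directions in EC-like cells and in another class of the same libraries, with both counting intervals clear of 0. With 1 library per genotype, no difference between classes was tested, and every class shares its pool of embryos with the EC-like cells. Each value below is the log2 ratio of mutant over control in the other class minus that in EC-like cells. For Hey1 this was 2.77 in mesenchyme-like cells, 2.04 in the cluster led by Adh1 and Tbx4, 1.77 in branchial muscle-like cells and 4.96 in mesothelium-like cells. For Notch4 it was 1.93 in mesenchyme-like, 2.53 in branchial muscle-like and 2.06 in neuron-like cells, at levels of at most 9.08 CPM outside EC-like cells. For Notch1 it was 1.39 in epithelium-like cells. In the cluster of mixed blood genes it was -2.61 for Notch3, from 28 control and 8 mutant UMIs, and -3.28 for Dll1, from 43 control and 8 mutant UMIs.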

How the results depend on the processing

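In 13 other analyses, EC-like cells were taken in other ways, likely doublets were removed, the filters, the scaling or the depth were changed, or female-like or G1 cells were kept, and 4 selections of sub-clusters were added after seeing the data. Dll4, Notch4, Jag2, Hey1 and Notch1 were below 0 in all of them, with ranges over those 13 from -1.36 to -0.95 for Dll4, -1.29 to -0.81 for Jag2, -1.23 to -0.57 for Hey1 and -0.77 to -0.05 for Notch1. The number of the 10 genes lower past 1.5-fold was 3 as a mean over cells and 1 (Dll4) at a fold of 2, against 5. Notch3 turned to -0.018 in cells with at least 5 EC markers and to -0.83 at resolution 0.8, and Dll1 to -0.72 in sub-cluster 1 alone. The ratio of Hey2 was above 0 in 8 of the 13, and ran from -0.53 in G1 cells to 0.75 with a minimum of 1000 genes. The arterial median was -0.78 in cells with at least 5 EC markers, -0.72 with a minimum of 1000 genes, -1.29 in G1 cells and -1.40 in sub-cluster 0 alone. The venous median was -0.37 and -0.39 under the first pair of these, and above 0 in thinned cells (0.06), G1 cells (0.07), with equal sub-cluster shares (0.09), with a minimum of 100 UMIs (0.01), without sub-cluster 3 (0.23) and in sub-cluster 0 alone (0.21). The mutant share of sub-cluster 3 was 3.004% in female-like cells, and at full depth the differences in cells with a UMI were 6.25 points for Notch3, -18.4 for Notch4 and -18.5 for Dll4. The causes were not tested. No paired analysis was possible because there was 1 library per genotype. Depth limits Notch3, Hey2, Dll1 and Notch2 in control EC-like cells, which held 23 to 64 UMIs each.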
